A study of Sus scrofa with 6 samples.

Results

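Class I peptide processing is described here in pig gut through 10 genes of the immunoproteasome and of peptide loading: B2M, TAP1, TAP2, TAPBP, NLRC5, PSMB8, PSMB9, PSMB10, PSME1 and PSME2. They were chosen by name, as rows of the deposited expression table whose pig Ensembl identifier carries one of these symbols. Of the 10, 9 were matched among 21911 genes; B2M had no match and was not analysed here. Of the 9, 8 had a mean of at least 1 FPKM (a read count scaled by the gene's length in kilobases and by the library's total) and were tested with the 11471 genes that passed this filter, while PSME1 did not pass it.

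Of the 6 gut RNA libraries, 3 carry the label SMP and 3 the label Control. The series as a whole set piglets given an alkaline mineral water with metasilicate to drink against Control piglets, and SMP is taken here as the water group because it is the one not labelled as Control. The dose and length of treatment, the gut segment and the piglets' breed, age and sex are not stated in the material used. Nothing in the labels ties each sample to a piglet of its own, so p-values measure the spread between these samples, which may be technical.

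Cells show fragments of their own proteins on MHC class I molecules. Proteasomes cut the proteins, the TAP transporter carries the peptides into the endoplasmic reticulum, and chaperones load them onto a heavy chain paired with beta-2 microglobulin, the product of B2M. Interferons induce the immunoproteasome subunits and the TAP genes, and in human and mouse cells NLRC5 activates class I genes. In the gut, both epithelial cells and leukocytes use this pathway. Roles given below are known mostly from human and mouse.

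The recovered library totals were 15927028 to 20712701 reads or read pairs. Of all tested genes, 401 were higher and 241 lower in SMP at an adjusted p under 0.05, which made 62.5% of the called genes higher. Median-ratio scaling of the libraries gave 344 against 462, so 42.7% of calls were higher; voom on recovered counts gave 369 against 502 (42.4%). SMP replicate 3 and Control replicate 2 stood apart from the others of their groups on the second principal component, at 28.9 and -38.6. Epithelial genes were well read: EPCAM was at 201 to 225 FPKM in SMP and 157 to 236 FPKM in Control. The Y-linked gene EIF1AY was at 25.7, 29.6 and 23.9 FPKM in SMP and at 0.187, 0 and 0.0320 FPKM in Control, so sex and treatment cannot be told apart.

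None of the 8 tested class I processing genes passed the test between SMP and Control (limma, Benjamini-Hochberg adjustment over all tested genes). Across all tested genes 5.60% passed, 3.50% as higher and 2.10% as lower. At an unadjusted p under 0.05 the count was 0 of 8, against 2958 of the 11471. The median log2 difference of the 8 was 0.03, beside 0.09 for all tested genes, with a range of -0.55 for PSME2 to 0.59 for NLRC5. Each log2 difference subtracts the Control mean of log2(FPKM + 1) from the SMP mean, and the added 1 shrinks the differences of weakly expressed genes. The groups failed to overlap in 1 of the 8, PSME2, with every SMP value below every Control value. Of all tested genes, 32.6% did not overlap, 11.5% with SMP below and 21.1% with SMP above. In bulk tissue, fewer cells of a type and less RNA per cell cannot be told apart.

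**Figure D1:**
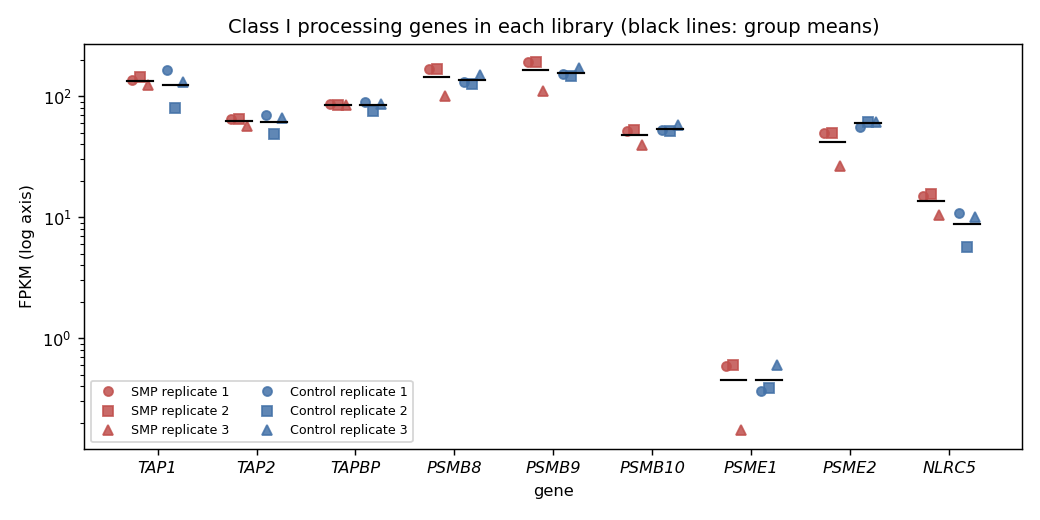
FPKM of the 9 measured class I processing genes in each library on a log axis, SMP in red and Control in blue, marker shapes for replicates and black lines for group means. PSMB9, PSMB8 and TAP1 are the highest, PSME1 lies below 1 FPKM in all libraries, and the groups overlap in every gene except PSME2.

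The order of levels per length was much alike in the 6 libraries. PSMB9, PSMB8 and TAP1 held the first 3 places in each library, TAPBP rank 4, NLRC5 rank 8 and PSME1 rank 9, while TAP2, PSMB10 and PSME2 changed places between ranks 5 and 7; the place of PSMB10 is uncertain with its length, as described with its values. Among all 21911 genes of a library, PSMB9 lay at percentile 98.2 to 98.8, NLRC5 at 72.7 to 85.1 and PSME1 at 34.1 to 45.8.

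The immunoproteasome core subunits were among the most abundant of these genes. PSMB9 (ENSSSCG00000001463), which takes the place of the constitutive subunit PSMB6, had 190.3, 190.3 and 109.5 FPKM in SMP replicates 1, 2 and 3, against 152, 147 and 170.5 FPKM in Control replicates 1, 2 and 3. SMP replicates 1 and 2 were above every Control library and SMP replicate 3 was below every one. The log2 difference was 0.02 (95% interval -0.55 to 0.59, SE 0.24, adjusted p = 0.968). PSMB8 (ENSSSCG00000026951), the counterpart of PSMB5, had 166.5, 169 and 99.8 FPKM in SMP, against 131, 126 and 149 FPKM in Control. Its libraries fell in the same pattern as those of PSMB9, with SMP replicate 3 again the lowest of the 6. The log2 difference of PSMB8 was 0.07 (95% interval -0.48 to 0.62, SE 0.23, adjusted p = 0.886). Without SMP replicate 3 it was 0.31 for PSMB8 and 0.28 for PSMB9 (adjusted p = 0.162 and 0.182), still short of the threshold.

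PSMB10 (ENSSSCG00000031781), the counterpart of PSMB7, had 51.9, 52.6 and 39.6 FPKM in SMP and 52.9, 51.2 and 57.3 FPKM in Control. Only SMP replicate 3 lay outside the range of the others by more than a few FPKM. The log2 difference was -0.17 (95% interval -0.55 to 0.21, SE 0.16, adjusted p = 0.545). The gene length behind these values was 6072 bases, against 1678 to 2885 bases for the other proteasome genes of the set. In the RefSeq gene table of the pig assembly Sscrofa11.1 the whole PSMB10 locus is 2700 bases long and lies between CTRL and LCAT, so the level of PSMB10 per length is uncertain. Whether reads of neighbouring genes were counted with it was not tested.

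Both subunits of the interferon-inducible proteasome activator, a ring that opens the core particle, are among the 10 genes. PSME2 (ENSSSCG00000002004) had 49.9, 49.8 and 26.3 FPKM in SMP replicates 1, 2 and 3 and 55.5, 61.7 and 61.5 FPKM in Control replicates 1, 2 and 3. It averaged 42.0 ± 13.6 FPKM in SMP and 59.6 ± 3.55 FPKM in Control (SD, n = 3 each), a ratio of 0.706. All 3 SMP libraries were below the lowest Control library, and SMP replicate 3 was far below SMP replicates 1 and 2. The log2 difference was -0.55 (95% interval -1.16 to 0.07, SE 0.26, adjusted p = 0.240), and it was -0.25 without SMP replicate 3 (adjusted p = 0.199).

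PSME1 (ENSSSCG00000002006), whose product forms the activator ring together with that of PSME2, was listed at 0.583, 0.600 and 0.173 FPKM in SMP and at 0.364, 0.386 and 0.601 FPKM in Control. These values rest on 29, 30 and 7 reads in SMP and on 14, 15 and 27 reads in Control, whereas PSME2 had 743 to 1922 reads in each library. PSME1 was not tested, and no difference is read from so few reads. Multi-mapping rules are not stated, and whether reads of PSME1 were assigned elsewhere was not tested.

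The immuno subunits were then set against the constitutive subunits of the same library, which removes the scaling of libraries. PSMB5 and PSMB6 had no match, so PSMB10 to PSMB7 was the 1 direct pair. PSMB7 had 62.9, 66.6 and 49.0 FPKM in SMP and 49.4, 54.5 and 55.5 FPKM in Control. The ratio of PSMB10 to PSMB7 was 0.826, 0.789 and 0.808 in SMP and 1.07, 0.939 and 1.03 in Control. Every SMP ratio was below every Control ratio, by 0.33 on the log2 scale of the group means. The exact two-sided permutation p was 0.1, the smallest that 3 against 3 allows, and 0.2 after adjustment over the 4 ratios computed. With each library's trend with gene length removed the difference was -0.61, so the size of this ratio depends on how gene length is treated.

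Against the geometric mean of the 11 measured constitutive subunits, a comparison chosen after PSMB5 and PSMB6 were found unmatched, PSMB8 was at 2.565, 2.52 and 1.91 in SMP and 2.22, 2.33 and 2.265 in Control. PSMB9 was at 2.93, 2.84 and 2.095 in SMP and 2.57, 2.72 and 2.60 in Control. In both, SMP replicates 1 and 2 were above the Control libraries and SMP replicate 3 below them (exact permutation p = 1 for each). PSMB10 was at 0.800, 0.785 and 0.757 in SMP and 0.897, 0.949 and 0.873 in Control, with no overlap (exact permutation p = 0.1, adjusted p = 0.2). Levels of PSMB8 and PSMB9 per length were thus above the geometric mean of the 11 constitutive subunits in all 6 libraries. They were not above each of these subunits: PSMB4, at 183 to 273 FPKM, was above both in each library. The lengths behind PSMA4 and PSMB2 were 8261 and 6851 bases, so the mean too may depend on how gene length is treated. The level of PSMB10 is not ranked against this mean, since the length of PSMB10 is uncertain.

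**Figure D2:**
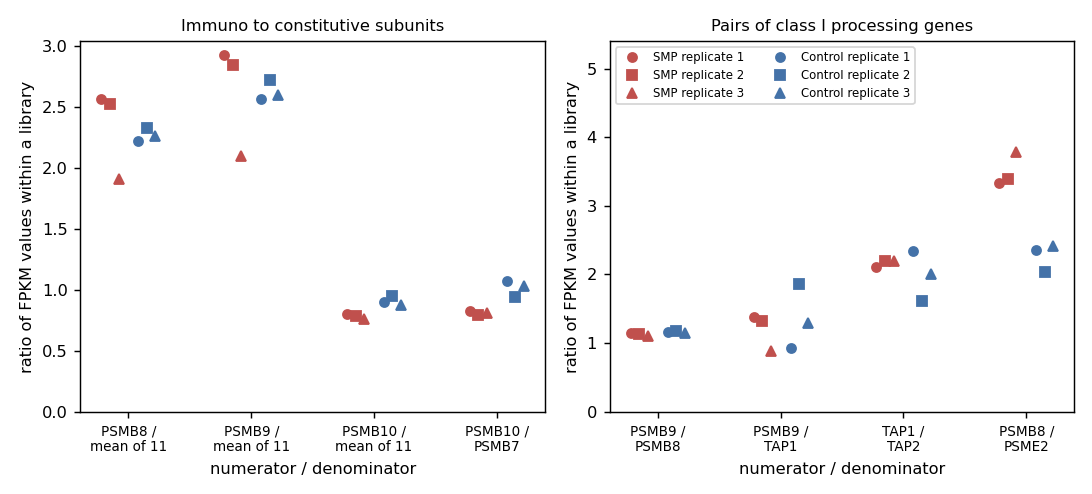
Ratios of FPKM values within each library, SMP in red and Control in blue, marker shapes for replicates. On the left PSMB8, PSMB9 and PSMB10 are divided by the geometric mean of 11 constitutive subunits, and PSMB10 by PSMB7, where SMP lies at 0.789 to 0.826 and Control at 0.939 to 1.07. On the right are pairs within the set: PSMB9 to PSMB8 hardly varies (1.10 to 1.17), while PSMB8 to PSME2 is 3.33 to 3.79 in SMP and 2.035 to 2.42 in Control.

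The constitutive core and the other activators gave no call either. Of 11 tested constitutive subunits 0 passed, with a median log2 difference of 0.00; without SMP replicate 3, 1 passed as higher. The smallest p-values were those of the alpha subunit gene PSMA4, at 9.99 ± 0.734 FPKM in SMP and 7.87 ± 0.978 FPKM in Control (SD, n = 3 each, limma adjusted p = 0.220), and of the beta subunit gene PSMB4, at 216 ± 28.3 and 254 ± 21.7 FPKM (SD, n = 3 each, limma adjusted p = 0.407). Among 5 assembly factors and other activators 0 passed. PSME3, which encodes the nuclear activator related to PSME1 and PSME2, had 15.1, 15.9 and 13.9 FPKM in SMP and 11.8, 8.85 and 9.01 FPKM in Control, a log2 difference of 0.56 (95% interval 0.20 to 0.93, adjusted p = 0.0784). PSME4, a further activator, had a log2 difference of 0.45 (adjusted p = 0.128). In 3 of the 5 genes, PSME3, PSME4 and the assembly factor gene POMP, every SMP value was above every Control value. Of all tested genes, 21.1% had this order and 11.5% the reverse, which was the order of PSME2.

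The transporter genes overlapped widely between the groups. TAP1 (ENSSSCG00000025618), one chain of the peptide pump, had 137, 143 and 123 FPKM in SMP replicates 1, 2 and 3 and 163, 79.4 and 132 FPKM in Control replicates 1, 2 and 3. All SMP values lay inside the Control range, which Control replicates 1 and 2 set. The coefficient of variation was 7.59% in SMP and 33.95% in Control. The log2 difference was 0.17 (95% interval -0.47 to 0.80, SE 0.27, adjusted p = 0.734). TAP2 (ENSSSCG00000025593), the other chain, had 64.9, 65.1 and 56.2 FPKM in SMP and 69.7, 49.0 and 65.6 FPKM in Control. As with TAP1, the highest and the lowest library were Control replicates 1 and 2, and the log2 difference was 0.03 (95% interval -0.39 to 0.45, SE 0.18, adjusted p = 0.941).

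TAPBP (ENSSSCG00000001507) encodes tapasin, which bridges the transporter and the empty class I molecule. It had 86.4, 85.2 and 84.1 FPKM in SMP and 90.0, 75.8 and 86.3 FPKM in Control. Its coefficient of variation was 1.315% in SMP, the lowest of the 8 genes there, and 8.74% in Control, where PSMB10, PSME2 and PSMB9 varied less. Its log2 difference was 0.02 with the narrowest interval of the set (95% interval -0.30 to 0.34, SE 0.14, adjusted p = 0.931). The signs of the differences of TAP2, TAPBP, PSMB8 and PSMB9 turned negative with median-ratio scaling and with voom, and that of TAP1 without Control replicate 2, so no direction is read from them.

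NLRC5 (ENSSSCG00000039751), the transactivator of class I genes, was the lowest of the tested set and had the largest positive difference. It had 14.8, 15.4 and 10.4 FPKM in SMP replicates 1, 2 and 3 and 10.7, 5.67 and 10.1 FPKM in Control replicates 1, 2 and 3. SMP replicates 1 and 2 were above every Control library, whereas SMP replicate 3 lay between Control replicates 1 and 3. It averaged 13.6 ± 2.72 FPKM in SMP and 8.83 ± 2.76 FPKM in Control (SD, n = 3 each). The log2 difference was 0.59 (95% interval -0.02 to 1.21, SE 0.26, adjusted p = 0.209), and it stayed positive under each alternative run, from 0.33 to 0.76. Without both SMP replicate 3 and Control replicate 2 it passed as higher (log2 difference 0.50, adjusted p = 0.0233); in that fit 15.8% of all tested genes passed as higher.

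**Figure D3:**
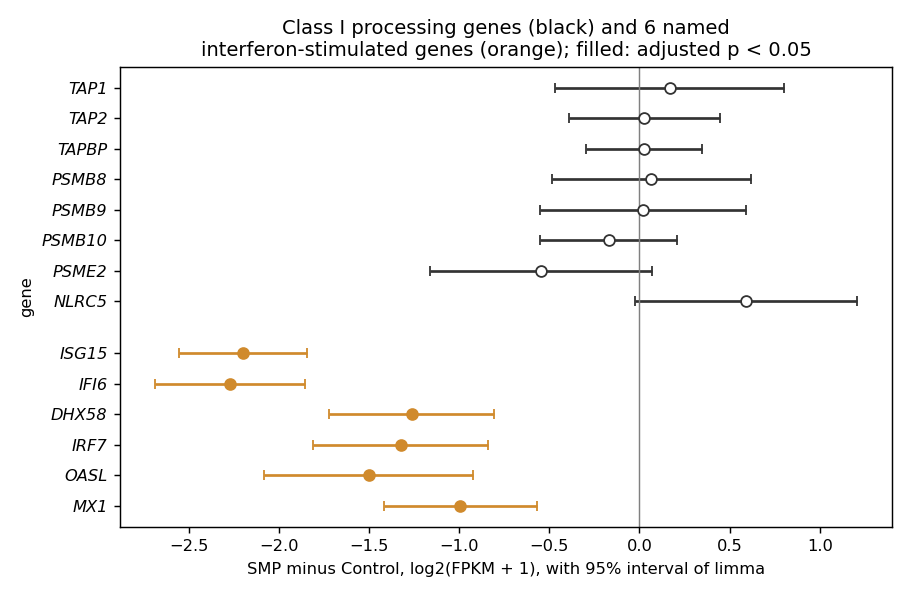
Log2 differences (SMP minus Control, log2(FPKM + 1)) with the 95% intervals of limma for the 8 tested class I processing genes in black and 6 interferon-stimulated genes in orange; filled points have an adjusted p under 0.05. All 8 black intervals include 0, from TAPBP (-0.30 to 0.34) to PSME2 (-1.16 to 0.07). The orange points lie between -2.27 and -0.99, but they were picked as the 6 smallest p-values of the 8 passing genes. Over all 26 tested genes of that list the differences ran from -2.27 to 0.25, so the black and orange points are not a like comparison.

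The 8 genes did not share a single pattern over the libraries. Among their 28 pairs, the ratio of PSMB9 to PSMB8 varied least, from 1.10 to 1.17, with an SD of 0.03 on the log2 scale against a median SD of 0.32 over pairs. TAP1 lies between PSMB8 and PSMB9 in the RefSeq order, and TAP2 on the other side of PSMB8. Its ratio did not stay fixed to theirs: PSMB9 to TAP1 was 1.39, 1.33 and 0.887 in SMP and 0.929, 1.85 and 1.29 in Control. TAP1 to TAP2 was 2.11, 2.20 and 2.20 in SMP and 2.34, 1.62 and 2.01 in Control. The proteasome genes had their lowest value in SMP replicate 3 and the transporter genes, TAPBP and NLRC5 in Control replicate 2.

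Most ratios whose groups did not overlap held NLRC5 or PSME2, the genes with the highest and the lowest difference of the 8. The groups did not overlap in 13 of the 28 pairs (46.4%), in all 7 pairs with NLRC5 and in 6 of the 7 with PSME2. Over all pairs of the 11362 tested genes listed above 0 in every library, 32.6% did not overlap, and over the pairs of each such gene with NLRC5 and with PSME2 it was 38.0% and 52.9%. TAP1 to NLRC5 was 9.25, 9.31 and 11.8 in SMP and 15.2, 14.0 and 13.1 in Control. PSME2 to NLRC5 was 3.37, 3.23 and 2.525 in SMP and 5.17, 10.9 and 6.09 in Control. PSMB8 to PSME2 was 3.33, 3.39 and 3.79 in SMP and 2.36, 2.035 and 2.42 in Control. One pair without NLRC5 and PSME2, PSMB9 to PSMB8, also did not overlap, at 1.14, 1.13 and 1.10 in SMP and 1.158, 1.17 and 1.15 in Control. These pairs were looked at after the values were seen, share genes with each other and were not tested.

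**Figure D4:**
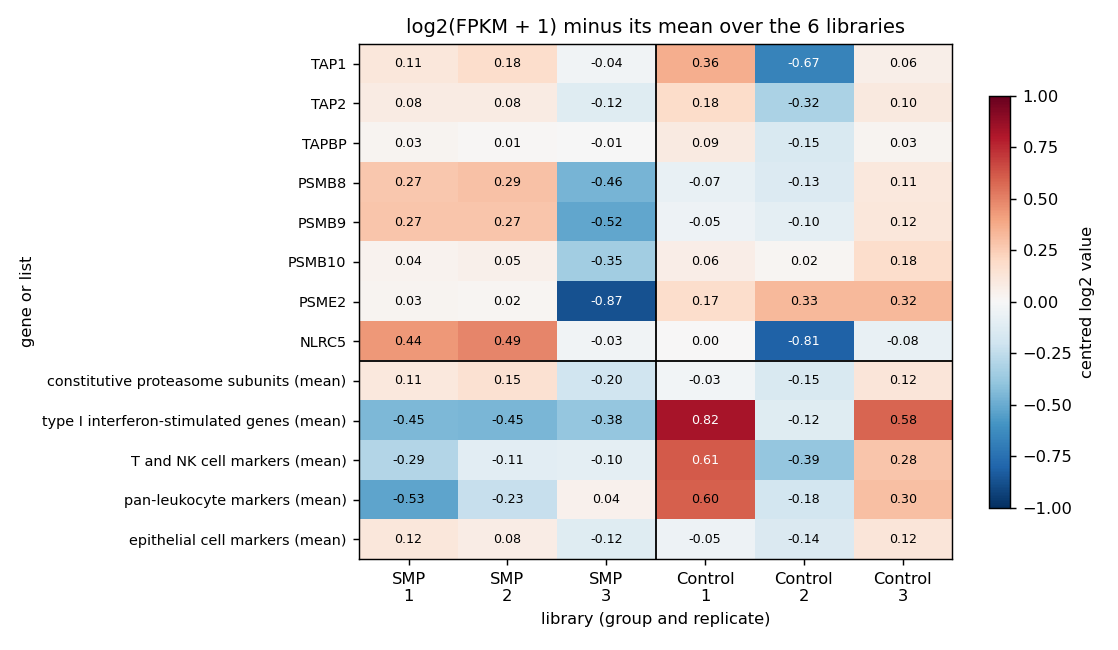
log2(FPKM + 1) of each of the 8 tested genes, and the mean of 5 gene lists, minus its mean over the 6 libraries; columns are libraries, SMP left and Control right. PSMB8, PSMB9, PSMB10 and PSME2 are lowest in SMP replicate 3, TAP1, TAP2, TAPBP and NLRC5 in Control replicate 2, and the interferon-stimulated list is negative in all SMP libraries.

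By root mean square distance between centred log2 values over the 6 libraries, the genes nearest to the mean profile of the 8 were SLC25A22 (0.04), MLLT6 (0.04), BAHD1 (0.04), AATF (0.04), ABHD17A (0.04) and C9orf78 (0.05). The 8 genes themselves lay at 0.10 (TAP2) to 0.35 (PSME2) from their own mean, beside a median of 0.30 over all tested genes.

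Among chaperones that fold and load the heavy chain, HSPA5 and CALR were higher in SMP. Of 15 tested helper genes of trimming and loading, 2 rose and 0 fell, with a median log2 difference of 0.44. HSPA5, which encodes a general chaperone of the endoplasmic reticulum, had 472, 487.5 and 367 FPKM in SMP and 148, 112 and 140 FPKM in Control (log2 difference 1.72, SE 0.18, adjusted p = 0.00775). CALR, which encodes calreticulin of the loading complex, had 654, 625 and 487 FPKM in SMP and 353, 257.5 and 328.5 FPKM in Control (log2 difference 0.91, SE 0.19, adjusted p = 0.0448). All SMP values of both genes were above all Control values. The call of HSPA5 was lost without SMP replicate 1 (adjusted p = 0.0582), SMP replicate 2 (0.0596) or Control replicate 3 (0.0518). The call of CALR was lost without any single library except SMP replicate 3, with adjusted p-values of 0.0525 without Control replicate 2 to 0.185 without SMP replicate 2, and with no filter on low values (0.0964). It was also lost with the replicate number as a block (0.106). The counts of the list passing were 0 to 3 over the single libraries left out.

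Other loading genes missed the threshold. The chaperone gene CANX was at 180 ± 34.1 FPKM in SMP and 90.7 ± 25.3 FPKM in Control (SD, n = 3 each, limma adjusted p = 0.0625), and PDIA3, whose product works with calreticulin, at 494 ± 85.2 and 337 ± 25.9 FPKM (SD, n = 3 each, limma adjusted p = 0.119); both were chosen after their values were seen. ERAP1 and TAPBPL were likewise chosen after their values were seen. ERAP1, which trims peptides in the endoplasmic reticulum, was at 39.2, 40.6 and 50.95 FPKM in SMP and 39.0, 22.0 and 37.2 FPKM in Control (adjusted p = 0.318). The tapasin-related gene TAPBPL was at 0 to 0.132 FPKM over the 6 libraries and was not tested.

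Class I heavy chain genes had no match under the SLA symbols and were not analysed here. Among class I-like genes, FCGRT, the Fc receptor chain that pairs with beta-2 microglobulin, had 156, 151 and 127 FPKM in SMP and 181, 134 and 164 FPKM in Control (log2 difference -0.14, 95% interval -0.54 to 0.27, adjusted p = 0.655). MR1, which presents vitamin metabolites, had a mean below 1 FPKM and was not tested.

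**Figure D5:**
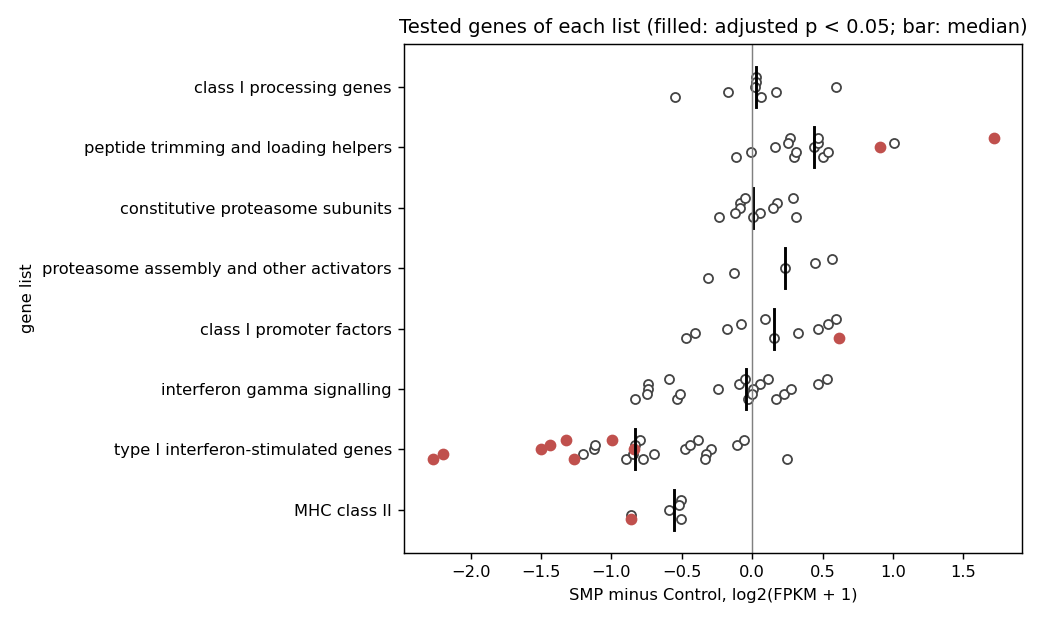
Log2 differences (SMP minus Control, log2(FPKM + 1)) of the tested genes of 8 lists; each point is a gene, filled where the adjusted p was under 0.05, and the bar is the list's median. The class I processing genes centre on 0.03 with no filled point, the loading helpers on 0.44 and the type I interferon-stimulated genes on -0.83.

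Interferon-stimulated genes, genes of interferon gamma signalling and factors of class I promoters were examined by list. Of 26 tested type I interferon-stimulated genes, 8 fell and 0 rose, with a median log2 difference of -0.83. Across all tested genes 2.10% passed as lower and 3.50% as higher. These interferon-stimulated genes were known from earlier results of these data to be lower. ISG15, a ubiquitin-like protein gene, had 360, 367 and 322 FPKM in SMP and 1498, 1519 and 1814 FPKM in Control (log2 difference -2.20, SE 0.15, adjusted p = 0.00158). IFI6 had a log2 difference of -2.27 (adjusted p = 0.00272), and DHX58, IRF7, OASL and MX1 had differences of -1.50 to -0.99 (adjusted p from 0.0222 to 0.0312). The calls of ISG15 and IFI6 held without each single library; those of the other 4 were lost without SMP replicate 1 or 2 or Control replicate 1 or 3. Without each of these 4 libraries 2 genes of the list passed, and without Control replicate 2 it was 18. With no filter on low values 4 passed. The calls of IRF7 (adjusted p = 0.0530) and MX1 (0.0764) were also lost with the replicate number as a block. Whether the class I processing genes and these genes differed in their response was not tested.

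Of 20 tested genes of interferon gamma signalling 0 passed, with a median log2 difference of -0.04. As lower, 3 passed without Control replicate 2, 1 with quantile normalization and 1 with voom. Of the 20, 6 had every SMP value below every Control value and 0 the reverse, beside 11.5% and 21.1% of all tested genes. The list was mixed in sign, with 9 positive and 11 negative differences, from -0.83 to 0.53. IFNGR2, a receptor chain, had 17.0, 20.03 and 20.4 FPKM in SMP and 39.4, 23.8 and 36.3 FPKM in Control (log2 difference -0.74, adjusted p = 0.0880). It passed without Control replicate 2 (adjusted p = 0.0253) and with voom (adjusted p = 0.0409). The chemokine gene CXCL11, induced by interferon gamma, was at 1.33 ± 0.313 FPKM in SMP and 3.25 ± 1.23 FPKM in Control (SD, n = 3 each, limma adjusted p = 0.0846), and it too passed without Control replicate 2 (adjusted p = 0.0373). The other receptor chain gene, IFNGR1, was at 22.15, 23.65 and 24.0 FPKM in SMP and 20.8, 16.7 and 22.2 FPKM in Control (adjusted p = 0.405).

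IRF1, a transcription factor gene induced by interferon gamma, overlapped between the groups. It had 138, 136 and 99.8 FPKM in SMP and 106, 90.4 and 109 FPKM in Control (log2 difference 0.28, adjusted p = 0.389). SMP replicates 1 and 2 were above all Control libraries, as in PSMB8 and PSMB9, and SMP replicate 3 lay between Control replicates 1 and 2. Without both SMP replicate 3 and Control replicate 2, IRF1 passed as higher (log2 difference 0.34, adjusted p = 0.0413). In that fit 15.8% of all tested genes passed as higher.

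Among 11 tested factors of class I promoters 1 rose. NFYA, a subunit of the factor that binds the Y box, had 3.55, 3.47 and 3.65 FPKM in SMP and 2.28, 1.68 and 1.997 FPKM in Control (log2 difference 0.61, SE 0.13, adjusted p = 0.0482). Its call was lost without each single library in turn, with adjusted p-values of 0.0557 to 0.188, and also with quantile normalization (0.099), median-ratio scaling (0.0571), the length trend removed (0.0617), a pseudocount of 0.1 (0.0501) or no filter (0.108). It was lost, too, with the replicate number as a block (0.1275). RFX5, which binds the neighbouring X box, was at 3.94 ± 0.656 FPKM in SMP and 4.235 ± 0.957 FPKM in Control, and the class II transactivator gene CIITA at 2.67 ± 0.533 and 3.16 ± 0.644 FPKM (SD, n = 3 each, limma adjusted p = 0.824 and 0.568).

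In the class II pathway, 1 of 6 tested genes fell and 0 rose, and all 6 differences were negative (median -0.56). SLA-DOA, a chain that tunes class II peptide loading, had 1.41, 1.705 and 2.24 FPKM in SMP and 3.83, 3.99 and 4.24 FPKM in Control (log2 difference -0.86, SE 0.15, adjusted p = 0.03005). Its call was lost without each single library except SMP replicate 3 and Control replicate 2, where it was kept, and with no filter (adjusted p = 0.0709), and the list's count was 0 to 4 over these fits. With the replicate number as a block the call of SLA-DOA was also lost (adjusted p = 0.0716).

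Markers of the cells that could carry class I transcripts were read beside these genes. The summed level of 9 pan-leukocyte markers was 139 to 211 FPKM in SMP and 185 to 319 FPKM in Control, with all 9 differences negative and 0 passing; 2 passed as lower with median-ratio scaling, with voom or without Control replicate 2, and 1 with the length trend removed. PTPRC, which encodes CD45 of all leukocytes, had 4.82, 6.13 and 9.09 FPKM in SMP and 13.8, 5.33 and 10.1 FPKM in Control (adjusted p = 0.471). The smallest p-values were those of RAC2 (log2 difference -0.71, adjusted p = 0.0683) and CORO1A (-0.63, adjusted p = 0.0833), genes of the leukocyte cytoskeleton; with median-ratio scaling both passed (adjusted p = 0.0464 each). For T and NK cells, the sum over the 18 measured rows was 265 to 341 FPKM in SMP and 250.03 to 607 FPKM in Control, and CD8A had 4.96, 5.615 and 4.05 FPKM in SMP and 11.7, 3.40 and 8.64 FPKM in Control (adjusted p = 0.472). None of the 17 tested T and NK cell genes passed, the nearest being the T cell coreceptor gene CD4 (log2 difference -0.42, adjusted p = 0.0985) and KLRB1 (-0.58, adjusted p = 0.153). Without Control replicate 2, 4 of the 17 passed as lower. Without both SMP replicate 3 and Control replicate 2, PTPRC passed as lower (log2 difference -0.99, adjusted p = 0.0239), as did CD8A (-0.82, adjusted p = 0.0280). In that fit 1235 of all 11416 tested genes passed as lower. Control replicate 2 was the lowest Control library in both sums and in TAP1, TAP2, TAPBP and NLRC5. It was also the lowest Control library in the epithelial sum (2979 FPKM, against 3313 and 3714) and the highest in the smooth muscle sum (2883 FPKM, against 1026 and 176). The 11 macrophage and dendritic cell markers summed to 68.1 to 91.9 FPKM in SMP and 111 to 149 FPKM in Control, and the 10 B and plasma cell markers to 78.2 to 118 and 243.5 to 345 FPKM. Of the 10 tested macrophage and dendritic cell genes 0 passed; AIF1 (log2 difference -0.87, adjusted p = 0.0615) and TYROBP (-0.75, adjusted p = 0.0748) came nearest. That count depends on the scaling: 2 passed as lower with quantile normalization or without Control replicate 2, and 3 with median-ratio scaling or voom, AIF1 with adjusted p-values of 0.0303 to 0.0422 in these fits. Of the 7 tested B and plasma cell genes 4 fell: MZB1 (-2.26), JCHAIN (-2.13), TNFRSF17 (-2.07) and POU2AF1 (-1.26), with adjusted p-values of 0.00504 to 0.0343. Their count was 2 to 4 without single libraries: the call of JCHAIN was lost without SMP replicate 1 or 2 or Control replicate 1 or 3 (adjusted p from 0.0895 to 0.136) and with no filter (0.0761), and that of POU2AF1 without SMP replicate 2 (0.0549). Of the 7 differences 6 were negative. That of XBP1 was positive (0.32, limma adjusted p = 0.273), with every SMP value above every Control value.

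The summed level of 9 epithelial markers was 3302 to 3580 FPKM in SMP and 2979 to 3714 FPKM in Control, with 0 passing; the smallest p-values were those of ELF3 (log2 difference -0.61, adjusted p = 0.161) and VIL1 (0.45, adjusted p = 0.202). Smooth muscle markers, 9 measured, summed to 1653 to 2254 FPKM in SMP and 176 to 2883 FPKM in Control, and 7 endothelial markers to 26.3 to 35.3 and 21.9 to 50.1 FPKM. None of these passed, with ACTG2 (log2 difference 2.24, adjusted p = 0.313), MYLK (1.32, adjusted p = 0.393), KDR (0.25, adjusted p = 0.452) and ERG (0.22, adjusted p = 0.501) nearest. Control replicate 3 had the lowest smooth muscle sum, 176 FPKM. Without it the log2 difference of ACTG2 was 0.63 and that of MYLK 0.29. Without Control replicate 2 these differences were 3.25 and 2.23. No marker of these lists was at 0 in all libraries. The part of cell composition in the class I values was not tested.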

How the data were processed

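The table that the authors deposited holds FPKM values for 6 samples, as read from the values, since whole read counts, lengths and totals that give them were recovered for 21911 of 21911 genes (relative tolerance 5e-09). HISAT2 2.0.5, StringTie and DESeq2 1.16.1 are named, without roles, per the submitters' processing notes. These also name mm10, a mouse build, although the identifiers are pig Ensembl genes, so no coordinates are printed. Per the labels' protocols, libraries were made with a NEBNext Ultra kit; strand and multi-mapping settings are not stated, so overlapping and near-identical genes are uncertain. Library totals were 15927028 to 20712701, and 3 reads in a 2 kb gene equal 0.0724 to 0.0942 FPKM, for counting error only.

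Symbols came from a gene name table (14153 of 21911 identifiers matched). Values were tested as log2(FPKM + 1), where the mean reached 1 FPKM, with limma 3.58.1 in R 4.3.3: treatment only, empirical Bayes trend, Benjamini-Hochberg adjustment at 0.05. Intervals are 95% and unadjusted. Ratios used an exact two-sided permutation test. The steps were tested on simulated data. The 10 genes, the gene lists and the tests were chosen with earlier results of these data known. The rule named every class I gene, the passing genes of each list (up to 6) or else the 2 with the smallest p, 12 genes by value (of which 1 is not reported here and PSMB5 and PSMB6 had no match) and the 6 nearest profiles. Read counts differed between libraries of 1 group beyond sampling noise. Chi-square per degree of freedom was 13.5 between SMP replicates 1 and 2, the closest pair, and 32.8 to 111 between the other pairs. Alternatives: quantile, median-ratio, gene-length (lowess, span 0.4) and voom fits, no filter or 5 FPKM, pseudocounts of 0.1 and 0.5, a replicate block, and libraries left out.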

Additional observations from a re-analysis of the deposited data

How the results depend on the processing

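Of the 8 tested class I processing genes, 0 passed under each alternative run except the fit without both Control replicate 2 and SMP replicate 3, where 1 passed (NLRC5). Counts over all genes moved far more: 158 higher and 100 lower with no filter, 241 higher with a mean of at least 5 FPKM, 462 lower with median-ratio scaling, 502 lower with voom, and 1808 higher and 1235 lower without both libraries. Leaving out single libraries gave 20 to 779 higher and 20 to 526 lower. With the replicate number as a block, 115 were higher and 121 lower. Deviations of same-numbered samples from their group means correlated at -0.31, 0.32 and -0.04. Of the 3 pairs 1, that of replicate 2, correlated best with its own number. With 3 samples in each group, these correlations cannot show whether same-numbered samples were paired. With the length trend removed, PSMB10 to PSMB7 was -0.61 and PSMB10 to the mean of constitutive subunits -0.39. The replicate block left the 4 ratios at -0.33, 0.03, -0.02 and -0.21. This was fixed in advance, since the block cannot change a difference of group means when each replicate number is in both groups.

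Log2 differences that changed sign, all with an adjusted p above 0.4, were as follows. With median-ratio scaling they were -0.082 (TAP2), -0.086 (TAPBP), -0.045 (PSMB8), -0.090 (PSMB9) and -0.0094 (EPCAM), and with voom -0.086, -0.089, -0.051, -0.097 and -0.010. With the length trend removed they were -0.012 (TAP2) and -0.036 (TAPBP), and with quantile normalization 0.019 (FCGRT). Without both libraries they were -0.065 (TAP1), -0.056 (TAP2), -0.039 (TAPBP), 0.060 (CIITA) and -0.029 (EPCAM). Without single libraries the ranges were -0.13 to 0.39 (TAP1), -0.12 to 0.12 (TAP2), -0.048 to 0.074 (TAPBP), -0.064 to 0.31 (PSMB8), -0.11 to 0.28 (PSMB9), -0.18 to 0.067 (RFX5), -0.079 to 0.22 (EPCAM) and, with no change of sign, -0.28 to -0.059 (CIITA). The cause was not tested. The 8 genes had at least 667 reads each in every library. Whether depth or the spread between libraries limits their tests was not tested.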
